A study of Mus musculus with 9 samples.

Results

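The Wnt pathway genes described here were 48 ligands, receptors and regulators listed by name, of which 47 were measured among 18193 genes. The member without a value was Tcf7, for which the platform annotation used here gave no probe set with a single gene symbol. Each gene was read from 1 probe set, the brightest of those annotated to that symbol alone. The arrays came from Neuro2a cells, a mouse neuroblastoma line, 48 h after transfection with siRNA, which was a control (siControl) or was directed at MyT1 (siMyT1) or LSD1 (siLSD1). The nervous system transcription factor MyT1 binds DNA through zinc fingers, and LSD1, encoded by Kdm1a, is a histone demethylase. Each condition had 3 arrays, 9 in all, with no untransfected cells among the samples used here. The labels name no allele or second agent, and they do not say whether the 3 replicates were separate cultures, so each p reflects only how much these arrays varied, which may be technical.

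Wnt ligands are lipid-modified secreted proteins that bind Frizzled receptors together with a co-receptor. In the branch that runs through beta-catenin, receptor engagement stops a cytoplasmic complex of Axin, Apc and Gsk3b from marking beta-catenin for destruction, and beta-catenin then works with TCF/LEF factors on target genes, several of which encode feedback inhibitors of the pathway. In the other branches, ligands such as Wnt5a act through Frizzled, Ror and Ryk receptors on cell polarity, migration and calcium. In the sympathetic lineage from which neuroblastoma arises, Wnt signalling is known from neural crest induction and from the growth of axons.

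All values are the deposited intensities, in arbitrary units of the deposited scale, with mean ± SD over 3 arrays. Differences are on a log2 scale after adding a pseudocount of 0.196 of those units, which understates the change of dim genes. A gene is said to have risen or fallen only where its p in limma's moderated test, with Benjamini-Hochberg adjustment over the 18193 genes, was under 0.05. For 1 gene alone, permuting 3 against 3 arrays exactly cannot give a two-sided p below 0.1. A probe's brightness also depends on its sequence, so no gene's level is set against another's, and in these bulk samples fewer cells of a type cannot be told apart from less RNA per cell.

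Both siRNA targets fell in the arrays labelled for them. Myt1 measured 4.60, 5.27 and 4.82 on the siControl arrays and 0.625, 0.882 and 0.474 after siMyT1, a log2 difference of -2.60 (SE 0.15, limma adjusted p = 1.25e-06). Kdm1a measured 28.1, 30.1 and 28.9 on the siControl arrays and 4.80, 4.05 and 4.63 after siLSD1, a log2 difference of -2.64 (SE 0.07, limma adjusted p = 3.01e-10). After siLSD1, Myt1 measured 7.09, 7.59 and 6.16, above every siControl array. That difference of 0.49 did not pass (limma adjusted p = 0.0850 over all single-symbol probe sets). Kdm1a differed by 0.09 after siMyT1 (0.606 on the same adjustment). Array medians ran from 0.302 to 0.424, highest for siMyT1 replicate 2, and arrays correlated at 0.992 to 0.994 within groups and 0.986 to 0.992 between them, over genes. Of 16 measured markers of neuroblastoma and sympathetic neurons, Nefl and Nefm, which encode neurofilament chains, lay below the pseudocount in all 3 groups.

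Promoter sequence was available from RefSeq for 3 of the 7 pathway genes that passed the test in any comparison, namely Fzd4, Tcf7l2 and Wls. Those of Wls and Tcf7l2 are shown because both genes rose after siMyT1. Each line gives the 250 bases before a transcription start, on the plus strand of GRCm38.p6, and capitals mark AACTT, the reverse complement of AAGTT. The zinc fingers of MyT1 are known to bind that core.
Wls, chr3:159839400-159839649: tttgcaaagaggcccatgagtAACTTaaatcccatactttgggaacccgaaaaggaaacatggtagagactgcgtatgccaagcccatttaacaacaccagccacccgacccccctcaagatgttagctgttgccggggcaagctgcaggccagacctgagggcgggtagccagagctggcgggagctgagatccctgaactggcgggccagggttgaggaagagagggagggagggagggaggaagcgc
Tcf7l2 first start, chr19:55741560-55741809: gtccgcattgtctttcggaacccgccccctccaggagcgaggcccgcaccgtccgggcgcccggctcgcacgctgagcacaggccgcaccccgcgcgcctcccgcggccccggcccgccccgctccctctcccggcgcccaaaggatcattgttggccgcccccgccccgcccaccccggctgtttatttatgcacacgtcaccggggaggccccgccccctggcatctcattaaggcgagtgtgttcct
Tcf7l2 second start, chr19:55895071-55895320: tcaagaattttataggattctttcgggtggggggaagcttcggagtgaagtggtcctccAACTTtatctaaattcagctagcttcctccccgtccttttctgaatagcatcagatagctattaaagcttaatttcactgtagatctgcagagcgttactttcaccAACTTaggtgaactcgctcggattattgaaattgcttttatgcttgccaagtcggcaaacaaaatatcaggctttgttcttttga
The Wls window holds 1 match, 229 bases before the start. The first Tcf7l2 window, with 72.8% G and C, holds none, and the second, with 40.8% G and C, holds 2, at 191 and 85 bases before the start. The Fzd4 window, which is not shown, holds none. AAGTT on either strand is present in 35.3% of 32851 mouse promoter windows of this length, and in 13 of 43 windows (30.2%) of the 33 pathway genes with an entry. The TCF/LEF motif CTTTGAT, on either strand, is in 3.21% of all windows and in 2 of the 43 (4.65%), those of Wnt5b and Wnt11, and in none of the 3 windows shown. A match describes these letters only and is not a binding site.

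Against siControl, siMyT1 raised Wnt5a, Wls and Tcf7l2 and lowered Dkk3, while siLSD1 lowered Fzd2 and raised Dkk3. The 4 genes that passed the test after siMyT1, 3 higher and 1 lower, are 8.51% of the 47 measured. Over all genes 7.41% passed in that comparison, 5.12% higher and 2.29% lower. The 2 genes that passed after siLSD1 are 4.26% of the 47, against 8.90% of all genes, 3.97% higher and 4.93% lower. The first share was close to that of all genes and the second, of 2 genes, below it, a gap that was not tested. The median log2 difference of the members was 0.05 after siMyT1 and -0.06 after siLSD1, against 0.05 and -0.03 over all genes.

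Set directly against each other, the 2 knockdowns differed in 7 members. Wnt5a, Fzd2, Fzd4, Fzd6, Tcf7l2 and Wls were higher after siMyT1 than after siLSD1, and Dkk3 was lower. These are 14.9% of the members, against 18.8% of all genes, of which 13.2% were higher and 5.58% lower. Their median difference was 0.10, against 0.09 over all genes. The direct difference uses no siControl array, but those 3 arrays enter the estimate of spread behind its p. With siMyT1 and siLSD1 fitted alone, 6 members passed, Tcf7l2 no longer among them, against 17.1% of all genes. The 2 comparisons with siControl share the siControl arrays.

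The arrays of siMyT1 and siControl did not overlap for 10 of 47 members (21.3%), against 24.0% of all genes. The figure for siLSD1 and siControl was 8 of 47 (17%), against 26.8%. Between siMyT1 and siLSD1 it was 12 of 47 (25.5%), against 33.0%. All 3 shares of the members were below those of all genes, but they rest on few genes and the gap was not tested.

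**Figure D1:**
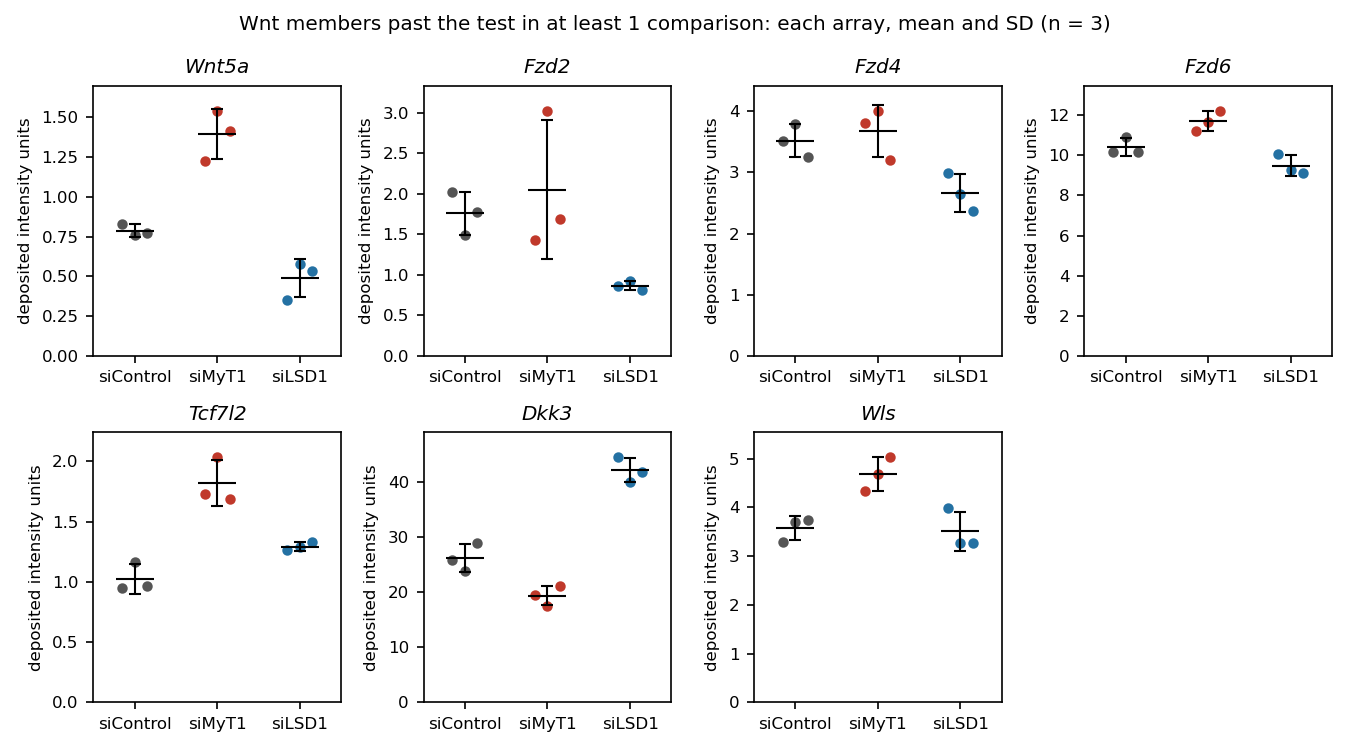
Deposited intensity (arbitrary units, linear axis from 0, a separate axis for each gene) of the 7 pathway genes that passed the test in at least 1 comparison. Points are single arrays, dashes are means and error bars are SDs of 3 arrays per group. Dkk3 runs from 17.6 to 21.1 after siMyT1 and from 40.2 to 44.6 after siLSD1, on either side of the siControl arrays.

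Many of these genes were dim in Neuro2a cells. In all 3 groups, 10 of the 47 had means below the pseudocount, namely Wnt3, Wnt10b, Fzd8, Fzd9, Ror1, Ror2, Tcf7l1, Sfrp2, Wif1 and Rnf43. A mean of at least 0.587 units, 3 times the pseudocount, was reached in some group by 24. By role these were 2 of 9 ligands, 1 of 2 export factors, 6 of 9 Frizzled receptors, 2 of 5 co-receptors and other receptors, 7 of 8 Dishevelled and destruction complex genes, 1 of 3 TCF/LEF factors, 4 of 9 inhibitors and 1 of 2 planar polarity genes.

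Among the 9 ligands of the member list, Wnt5a was the one that changed. It measured 0.832, 0.758 and 0.774 on the siControl arrays, 1.23, 1.54 and 1.41 after siMyT1, and 0.354, 0.581 and 0.534 after siLSD1. All 3 siMyT1 arrays lay above, and all 3 siLSD1 arrays below, every siControl array. Wnt5a, a ligand best known for signalling without beta-catenin, rose by 0.69 after siMyT1 (log2, SE 0.18, limma adjusted p = 0.0312). After siLSD1 the difference was -0.54 (SE 0.18, 95% interval -0.92 to -0.16), which did not pass (limma adjusted p = 0.0806). The direct difference between the knockdowns was 1.23 (SE 0.18, limma adjusted p = 0.000339), and the siMyT1 mean was 285% of the siLSD1 mean.

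The size of the Wnt5a rise against siControl varied little with the arrays used, at 0.62 to 0.77 whichever 1 array of the 2 groups was left out. Its call ended without any siControl array, siMyT1 replicate 2 or siMyT1 replicate 3 (adjusted p over all 16 alternatives 0.00325 to 0.103). The direct difference passed in all 16. The filter on dim genes brought the siLSD1 difference past the threshold. The gene's second brightest probe set measured 0.499 ± 0.11 after siControl, 0.867 ± 0.060 after siMyT1 and 0.330 ± 0.077 after siLSD1.

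Markers of mesenchymal cells and fibroblasts, which commonly make Wnt5a, had a higher sum on the siMyT1 arrays. The summed intensity over 17 genes was 191 to 208 after siControl, 261 to 277 after siMyT1 and 200 to 220 after siLSD1. After siMyT1, 4 of the 17 rose (23.5%, against 5.12% of all genes) and 0 fell, the 4 being Dcn, Fn1, Sparc and Acta2. After siLSD1, 1 rose (5.88%, against 3.97%), which was Sparc, and 0 fell. Col3a1 and Pdgfra lay below the pseudocount after siControl and siLSD1 and just above it after siMyT1, at 0.217 and 0.206. Col1a1, Lum, Thy1, Twist1, Twist2, Snai2, Prrx1 and Postn lay below it in all 3 groups. The sum is weighted toward the brightest probe sets. This list was chosen with earlier results of these data known, so its shares are not independent evidence. Whether such cells were present, and any part of theirs in the Wnt5a result, was not tested.

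The other 8 ligands passed in no comparison. Their differences from siControl ran from -0.20 for Wnt10a to 0.25 for Wnt9a after siMyT1. After siLSD1, all 9 ligands but Wnt3 were below 0, with a median of -0.32 over the 9 and 0 past the test, against a median of -0.03 over all genes, of which 10438 of 18193 were below 0. Below 0 were 7 of 9 both after quantile normalization (median -0.22) and after median centring (median -0.25). Most of these ligands were below the dim limit, and their values depended on the probe set. With all probe sets averaged, Wnt4 was at -0.06, Wnt5b at 0.03 and Wnt9a at -0.28, against -0.32, -0.14 and -0.13 from the probe set used. Wnt11, which like Wnt5a is best known outside the beta-catenin branch, measured 0.479, 0.625 and 0.324 after siControl, 0.427, 0.392 and 0.408 after siMyT1 and 0.336, 0.221 and 0.254 after siLSD1. Its siLSD1 difference of -0.51 (95% interval -0.94 to -0.08) did not pass (limma adjusted p = 0.151), and the groups overlapped. Wnt6, the other ligand above the dim limit, measured 0.698 ± 0.067 after siControl, 0.695 ± 0.12 after siMyT1 and 0.528 ± 0.12 after siLSD1 (limma adjusted p = 0.988 and 0.381).

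Of the export factors, Wls rose and Porcn did not pass. Wls is the cargo receptor that carries Wnt proteins to the cell surface. It measured 3.30, 3.70 and 3.73 after siControl, 4.34, 4.67 and 5.03 after siMyT1, and 3.98, 3.27 and 3.27 after siLSD1. The siMyT1 arrays lay above all others, and the siControl and siLSD1 arrays overlapped. The difference was 0.37 after siMyT1 (SE 0.10, limma adjusted p = 0.0393), -0.03 after siLSD1 (SE 0.10, limma adjusted p = 0.915) and 0.40 in the direct comparison (SE 0.10, limma adjusted p = 0.0124).

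The Wls call against siControl was the least stable of the 4 after siMyT1. It was lost in 9 of 16 alternatives (adjusted p 0.0112 to 0.161), among them median centring, the average over all probe sets and leaving out any siControl array, siMyT1 replicate 2 or siMyT1 replicate 3. The direct call was lost in 4 of 16 (adjusted p 0.00278 to 0.230), under median centring, with the probe sets averaged and without siMyT1 replicate 3 or siLSD1 replicate 3. Porcn, the acyltransferase that attaches the lipid to Wnt proteins, differed by 0.07 and 0.08 after siMyT1 and siLSD1 (limma adjusted p = 0.911 and 0.888).

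Among the Frizzled receptors, Fzd2 fell after siLSD1, and 3 differed between the knockdowns. After siMyT1 none of the 9 passed. On the scale as deposited 8 of 9 were above 0, with a median of 0.14, as were 11083 of 18193 genes, with a median of 0.05. Above 0 were 6 of 9 after quantile normalization (median 0.06) and 5 of 9 after median centring (median 0.04). After siLSD1 the 8 besides Fzd2 did not pass. Directly compared, Fzd2, Fzd4 and Fzd6 were each higher after siMyT1 than after siLSD1.

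Fzd2, a receptor that binds Wnt5a among other ligands, measured 2.02, 1.49 and 1.77 after siControl, 1.43, 3.03 and 1.69 after siMyT1, and 0.861, 0.921 and 0.810 after siLSD1. Every siLSD1 array lay below every other array, while siMyT1 replicate 2 stood above the rest of its group. The siLSD1 mean was 49.0% of the siControl mean, a log2 difference of -0.88 (SE 0.22, limma adjusted p = 0.0216). The siMyT1 difference was 0.14 (SE 0.22, limma adjusted p = 0.792), and the direct one 1.02 (SE 0.22, limma adjusted p = 0.00485). The fall against siControl lost its call without siControl replicate 1 or 3, without siLSD1 replicate 1 or 3 and without the intensity trend in the variance (adjusted p over all 16 alternatives 0.000318 to 0.0970). The direct difference kept it in all 16.

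Fzd4, a receptor for Wnt ligands and for norrin, measured 3.51, 3.79 and 3.25 after siControl, 3.80, 4.01 and 3.20 after siMyT1, and 2.98, 2.64 and 2.37 after siLSD1. The siLSD1 arrays lay below all 6 others, which overlapped. The siLSD1 difference of -0.38 (SE 0.11) missed the threshold (limma adjusted p = 0.0534) and passed it in 4 of the 10 alternatives that kept every array. The direct difference was 0.43 (SE 0.11, limma adjusted p = 0.0158), lost under median centring and without siMyT1 replicate 2 or siLSD1 replicate 3 (adjusted p 0.00262 to 0.0796 over the 16).

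Fzd6, which works with Fzd3 in planar polarity, measured 10.1, 10.9 and 10.2 after siControl, 11.2, 11.6 and 12.2 after siMyT1, and 10.1, 9.27 and 9.12 after siLSD1. The 3 siMyT1 arrays were the highest of the 9. Against siControl, the differences were 0.16 and -0.13 (limma adjusted p = 0.161 and 0.268). The direct difference of 0.30 (SE 0.06) passed (limma adjusted p = 0.00604), but not under median centring or with all probe sets averaged (adjusted p 0.00263 to 0.248 over 16 alternatives).

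Fzd3 gave different answers by probe set. The brightest probe set, the one used, measured 4.28 ± 0.11 after siControl, 4.82 ± 0.32 after siMyT1 and 4.32 ± 0.51 after siLSD1, and passed in no comparison. The second brightest measured 4.10, 4.04 and 4.05 after siControl, 1.68, 2.03 and 1.78 after siMyT1, and 4.74, 5.45 and 4.97 after siLSD1. On that probe set the 3 groups did not overlap. Its siMyT1 difference was -1.08 (SE 0.09), with a limma adjusted p of 8.16e-05 over all single-symbol probe sets. Its siLSD1 difference was 0.30 (adjusted p = 0.0779), and the direct one -1.38 (adjusted p = 4.35e-06). On the remaining pair of probe sets above the dim limit, the siMyT1 differences were -0.01 and 0.11, neither past the test. The disagreement was singled out after its values were seen, and which transcripts each probe set reads was not examined here.

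**Figure D2:**
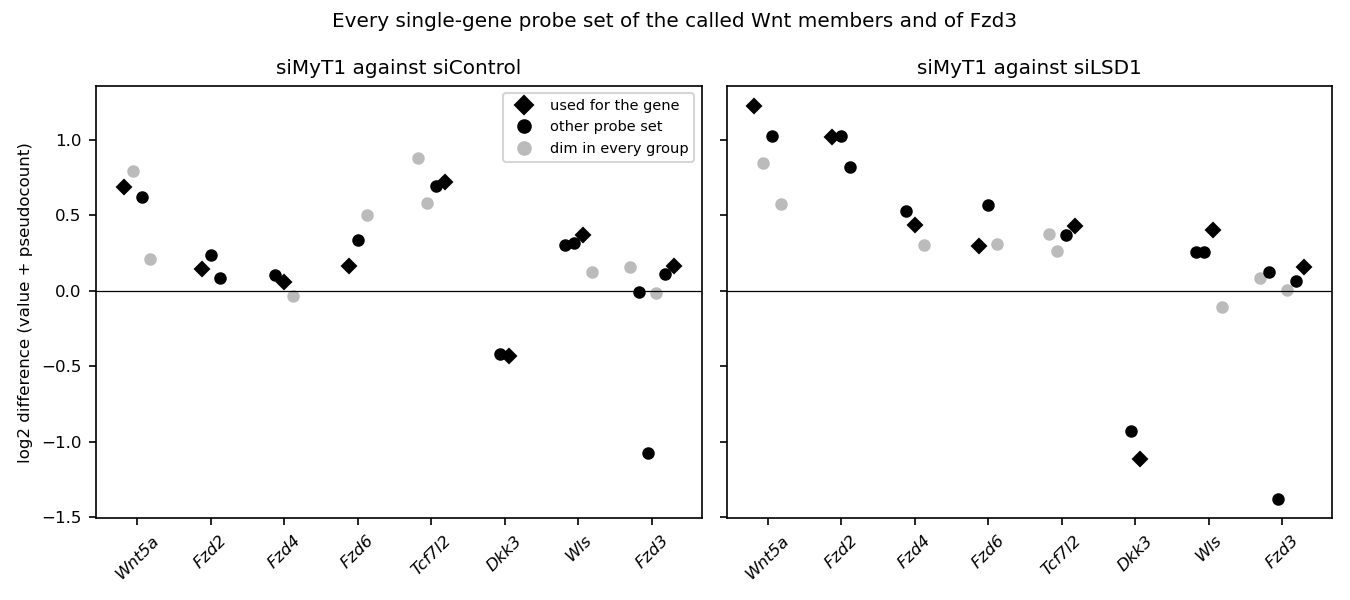
Log2 difference, on the log2(value + pseudocount) scale, for every single-symbol probe set of the 7 genes that passed the test and of Fzd3. The panels show siMyT1 against siControl and siMyT1 against siLSD1. One Fzd3 probe set lies at -1.08 against siControl and at -1.38 against siLSD1, while the one used lies at 0.16 in both. Both Dkk3 probe sets lie below 0 in each panel.

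Of the 47 members, 36 had more than 1 probe set, with 67 further probe sets, of which 29 were above the dim limit. For the members that passed, those brighter further probe sets had the same sign as the one used in 5 of 5 cases after siMyT1, 3 of 3 after siLSD1 and 9 of 9 in the direct comparison. Of those 5, only that of Dkk3 passed over all single-symbol probe sets (limma adjusted p = 0.0142). Those of Wnt5a (0.0869), Tcf7l2 (0.0594) and Wls (0.0502 and 0.224) did not. Dim further probe sets of Wnt5a and Tcf7l2 did pass (0.0129 and 0.0123). On that adjustment the Wls probe set used was itself at 0.0562. Probe sets of 1 gene were read on the same arrays and are not replicates, and whether they read the same transcripts was not examined.

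The remaining Frizzled receptors did not pass. Fzd5 measured 1.46, 1.58 and 1.41 after siControl, 1.80, 1.83 and 1.91 after siMyT1 and 1.93, 1.72 and 1.81 after siLSD1. Both knockdown groups lay above every siControl array, with differences of 0.28 and 0.26 (limma adjusted p = 0.173 and 0.203), and the siLSD1 one passed under quantile normalization. Fzd7 was at 5.12 ± 0.86, 5.75 ± 0.14 and 5.90 ± 0.13 in the order siControl, siMyT1 and siLSD1. Fzd1, Fzd8 and Fzd9 were below the dim limit in every group.

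The co-receptors and other receptors had 0 of 5 past the test in each comparison. Lrp6, the main co-receptor of the beta-catenin branch, was at 6.50 ± 0.88 after siControl, 5.77 ± 0.68 after siMyT1 and 6.59 ± 0.47 after siLSD1. Its direct difference of -0.19 (limma adjusted p = 0.255) reached -0.27 under quantile normalization and -0.36 under median centring, both past the threshold (adjusted p = 0.0369 and 0.00550). After siMyT1 it was -0.17 (limma adjusted p = 0.428), and -0.27 under median centring, at the edge of the threshold (adjusted p = 0.04999). Lrp5, its close relative, measured 0.196, 0.384 and 0.272 after siControl, 0.227, 0.224 and 0.306 after siMyT1 and 0.125, 0.0404 and 0.163 after siLSD1. All 3 siLSD1 values lay below the rest and below the pseudocount, with a difference of -0.66 (SE 0.21, limma adjusted p = 0.0683). Ryk, a kinase-like Wnt receptor, was at 14.0 ± 1.2, 13.5 ± 0.70 and 11.9 ± 1.8 (limma adjusted p = 0.880 after siMyT1 and 0.182 after siLSD1). Its siLSD1 difference of -0.24 was -0.22 under quantile normalization and passed there (adjusted p = 0.0437). Ror1 and Ror2, receptors for Wnt5a, had group means below the pseudocount.

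The cytoplasmic core passed in no comparison, with 0 of 8 Dishevelled and destruction complex genes called in each, where 7.41%, 8.90% and 18.8% of all genes passed after siMyT1, after siLSD1 and directly. Differences ran from -0.46 (Dvl3, a dim probe set) to 0.11 (Dvl2) after siMyT1 and from -0.23 to 0.02 after siLSD1. Ctnnb1, which encodes beta-catenin, was at 60.5 ± 3.9 after siControl, 64.1 ± 3.1 after siMyT1 and 61.4 ± 1.5 after siLSD1. The 95% intervals of its differences were -0.06 to 0.23 and -0.12 to 0.17. For Axin1, the scaffold of the complex, they were -0.15 to 0.18 and -0.25 to 0.08, for Apc -0.25 to 0.10 and -0.17 to 0.17, and for Gsk3b, the kinase, -0.33 to 0.04 and -0.35 to 0.03. These intervals are those of the 1 probe set used per gene, on the scale as deposited, so larger differences of the mRNAs are not excluded. Further probe sets above the dim limit gave, after siMyT1, -0.22 and 0.01 for Apc and 0.20 and 0.16 for Ctnnb1. After siLSD1 they ran from -0.25 to 0.27 for Gsk3b. None of these passed. Under median centring, Apc passed in the direct comparison at -0.25 (adjusted p = 0.0235), against -0.08 (adjusted p = 0.580) as deposited. With all probe sets averaged, Dvl2 passed there at 0.30 (adjusted p = 0.0404), against 0.21 (adjusted p = 0.102).

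Tcf7l2 was the TCF/LEF factor that changed. It encodes one of the DNA-binding partners of beta-catenin. It measured 0.947, 1.17 and 0.966 after siControl, 1.73, 2.04 and 1.69 after siMyT1, and 1.26, 1.29 and 1.33 after siLSD1. The 3 groups did not overlap, with siControl lowest and siMyT1 highest. The siMyT1 difference was 0.72 (SE 0.14, limma adjusted p = 0.00720), and it passed in all 16 alternatives. After siLSD1 the difference was 0.29 (SE 0.14, limma adjusted p = 0.250), which passed under quantile normalization.

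The direct Tcf7l2 difference of 0.43 (SE 0.14, limma adjusted p = 0.0429) was lost in 10 of 16 alternatives (adjusted p 0.0124 to 0.158). Among these were quantile normalization, median centring and leaving out siMyT1 replicate 2 or 3 or any siLSD1 array. Lef1, another beta-catenin partner, was at 0.275 after siControl, 0.387 after siMyT1 and 0.192 after siLSD1, with a direct difference of 0.60 (limma adjusted p = 0.0853), which passed with all probe sets averaged, at 0.52 (adjusted p = 0.0283). Tcf7l1, which mostly represses, was below the pseudocount in every group.

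Among the inhibitors, Dkk3 moved in opposite directions in the 2 knockdowns. Dkk3 is a secreted member of the Dickkopf family whose role in Wnt signalling is less settled than that of Dkk1. It measured 25.9, 23.9 and 28.9 after siControl, 19.6, 17.6 and 21.1 after siMyT1, and 44.6, 40.2 and 41.9 after siLSD1. No array of one group reached the range of another. The siMyT1 mean was 74.1% of the siControl mean, a log2 difference of -0.43 (SE 0.08, limma adjusted p = 0.00798). The siLSD1 mean was 161% of it, a difference of 0.69 (SE 0.08, limma adjusted p = 0.000168). Directly compared, Dkk3 differed by -1.11 (SE 0.08, limma adjusted p = 2.88e-06).

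The Dkk3 calls held under nearly all alternatives. Those of siLSD1 and of the direct comparison passed in all 16, and that of siMyT1 in 15, missing without the intensity trend (adjusted p = 0.0532, range 0.000199 to 0.0532). A second Dkk3 probe set measured 26.9 ± 1.9 after siControl, 20.0 ± 0.87 after siMyT1 and 38.4 ± 3.9 after siLSD1. The summed intensity of the 16 neuroblastoma and sympathetic neuron markers moved the same way, at 265 to 283 after siControl, 213 to 225 after siMyT1 and 290 to 322 after siLSD1. In that list 5 fell and 0 rose after siMyT1 (31.2% called, against 7.41% of all genes), and 6 rose and 1 fell after siLSD1 (43.8%, against 8.90%). Of 8 Schwann and glial markers, 0 passed against siControl, with sums of 2.48 to 3.61 after siControl, 3.48 to 4.26 after siMyT1 and 2.66 to 3.12 after siLSD1. These marker lists were also chosen with earlier results of these data known, so their shares are not independent evidence. The part of the marker shift in the Dkk3 result was not tested.

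Feedback genes of the beta-catenin branch did not pass. Axin2, a direct target that is widely used as a readout of the branch, measured 1.78, 2.58 and 1.83 after siControl, 1.84, 2.55 and 2.17 after siMyT1, and 1.77, 2.05 and 2.06 after siLSD1. The groups overlapped, with 95% intervals of -0.25 to 0.42 after siMyT1 and -0.38 to 0.28 after siLSD1. Dkk1, an inhibitor that binds Lrp5 and Lrp6, was at 51.9 ± 1.2, 57.7 ± 2.3 and 56.2 ± 3.7 in the order siControl, siMyT1 and siLSD1 (limma adjusted p = 0.201 and 0.373). Nkd1 and Nkd2, which act on Dishevelled, Znrf3 and Rnf43, ubiquitin ligases that remove Frizzled from the surface, and the secreted Sfrp1, Sfrp2 and Wif1 passed in no comparison. The 2 planar polarity members, Vangl2 and Prickle1, did not pass either. Vangl2, a membrane protein of that system, was at a difference of -0.16 after siMyT1 and -0.22 after siLSD1 (limma adjusted p = 0.379 and 0.211).

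**Figure D3:**
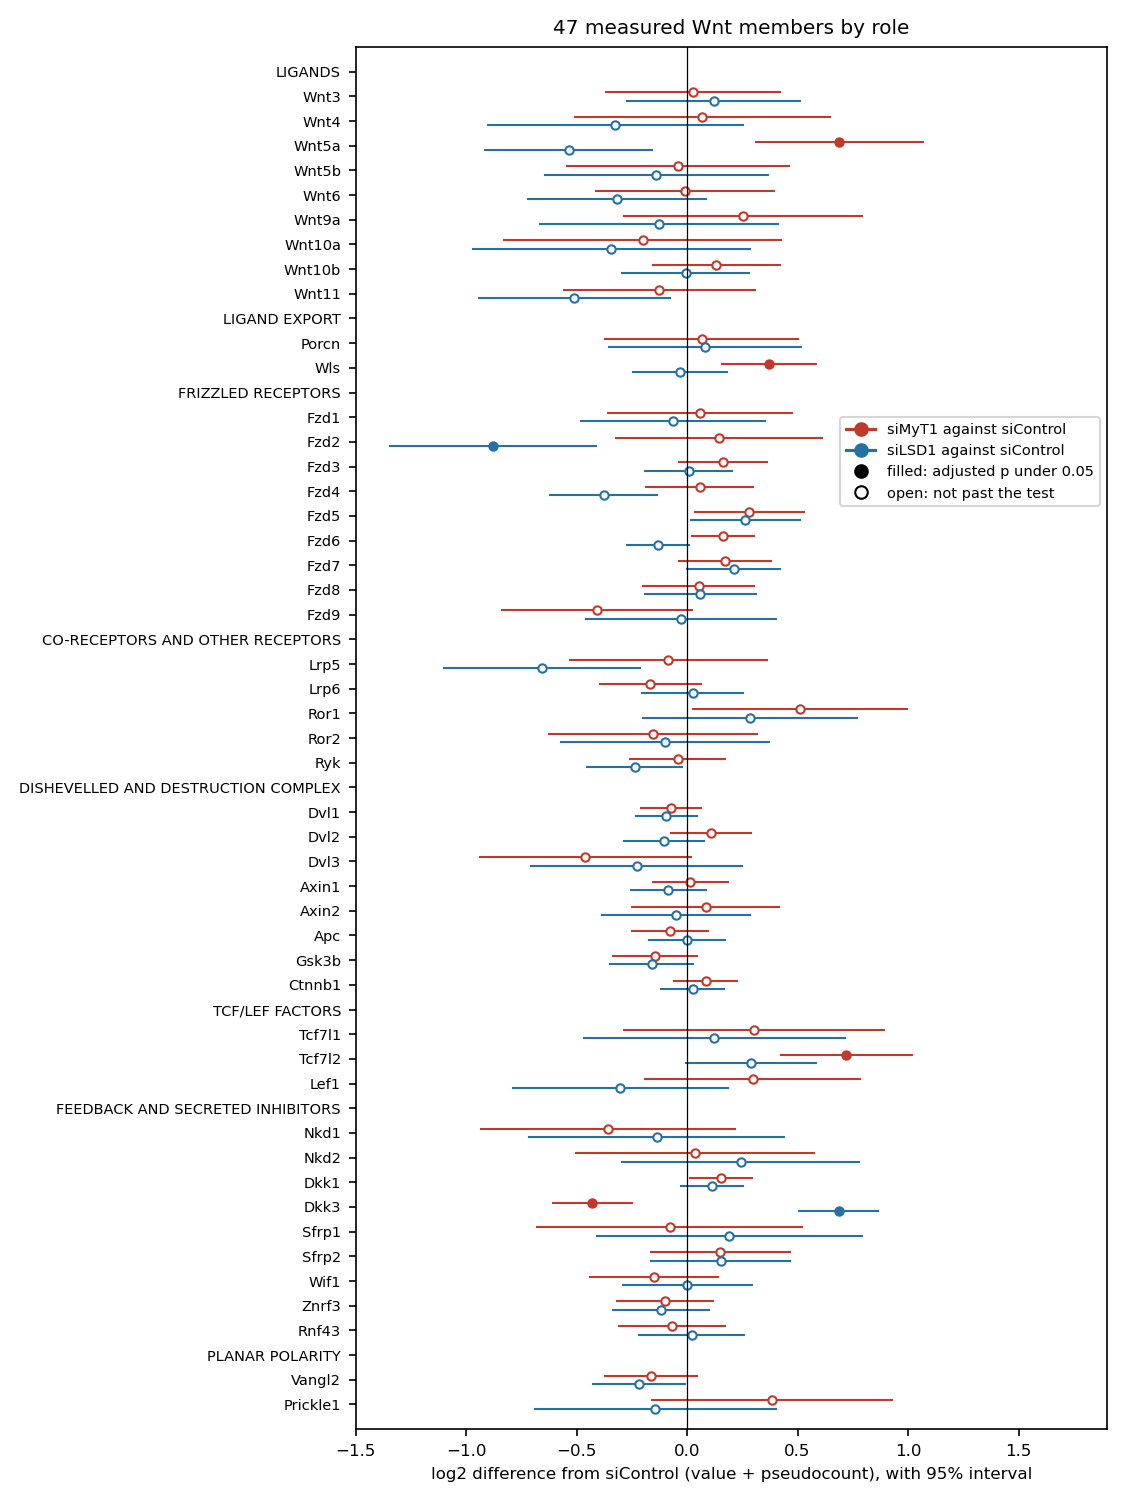
Log2 difference from siControl, on the log2(value + pseudocount) scale, with its 95% interval, for the 47 measured pathway genes by role. Filled points passed limma's test at an adjusted p under 0.05. Most intervals include 0, and Dkk3 lies at -0.43 after siMyT1 and at 0.69 after siLSD1.

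The scaling of the arrays changed which direct differences passed. Centring each array on its median log2 value moved the median difference of all genes by -0.105 after siMyT1, by 0.0638 after siLSD1 and by -0.169 in the direct comparison. The share of calls over all genes that were higher was 69.1% after siMyT1 as deposited, 51.0% after quantile normalization and 34.3% after centring. After siLSD1 it was 44.6%, 50.4% and 61.3%, and in the direct comparison 70.3%, 52.6% and 32.3%.

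Among the members, the calls after siMyT1 were 3 higher and 1 lower as deposited, 3 and 1 after quantile normalization, and 2 and 2 after centring. Those after siLSD1 were 1 and 1, 3 and 3, and 1 and 1, and those of the direct comparison 6 and 1, 5 and 2, and 2 and 3. Of all genes, 7.41%, 13.6% and 9.71% passed after siMyT1 under these 3 scalings. The shares were 8.90%, 15.4% and 11.2% after siLSD1, and 18.8%, 23.7% and 20.6% in the direct comparison. Wnt5a, Fzd2 and Dkk3 kept their direct calls under all 3 scalings, with centred differences of 1.06, 0.85 and -1.28. Fzd4, Fzd6, Tcf7l2 and Wls did not pass after centring, at 0.27, 0.13, 0.26 and 0.23. None of the 7 changed sign.

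**Figure D4:**
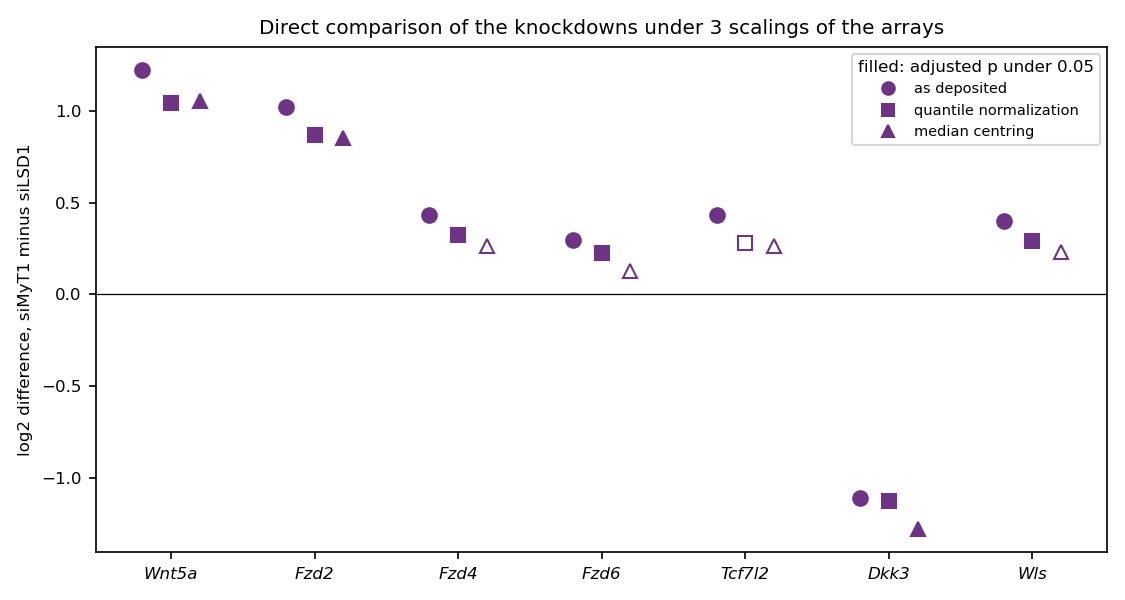
Log2 difference of siMyT1 minus siLSD1, on the log2(value + pseudocount) scale, for the 7 members that passed as deposited. Each is shown under 3 scalings (as deposited, quantile normalized, median centred). Filled points passed limma's test. Wnt5a, Fzd2 and Dkk3 are filled under all 3, and Fzd4, Fzd6, Tcf7l2 and Wls are open after centring.

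Single arrays also moved the counts. The count after siMyT1 was 2 without siControl replicate 1, without siControl replicate 3, without siMyT1 replicate 2 and without siMyT1 replicate 3. Of all genes 3.57%, 4.09%, 3.84% and 3.9% then passed, against 7.41% with every array. The count after siLSD1 was 1 without siControl replicate 1, without siControl replicate 3 and without siLSD1 replicate 3. Of all genes 5.33%, 6.91% and 5.3% then passed, against 8.90%. The direct count was 4 without siLSD1 replicate 3, where 12.8% of all genes passed, against 18.8%.

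Further genes of the pathway came from 4 lists. Of 34 measured other ligands, receptors and secreted modulators, 0 rose and 1 fell after siMyT1, none passed after siLSD1, and 2 were higher in the direct comparison. These calls are 2.94%, 0% and 5.88% of the list, against 7.41%, 8.90% and 18.8% of all genes. The list's median differences were -0.07, -0.11 and 0.05 in that order, against 0.05, -0.03 and 0.09 over all genes. Wnt3a, a ligand of the beta-catenin branch, was at 0.417 ± 0.082 after siControl, 0.171 ± 0.054 after siMyT1, which is below the pseudocount, and 0.293 ± 0.028 after siLSD1. Its siMyT1 difference was -0.74 (SE 0.18, limma adjusted p = 0.0271) and was lost in 6 of 15 alternatives. Lgr4, a receptor for R-spondins, was at 5.58 ± 0.79, 5.87 ± 1.0 and 4.03 ± 0.75 in the same order, with a direct difference of 0.52 (limma adjusted p = 0.0242), lost in 7 of 16 alternatives. Rspo2, an R-spondin, was dim, with a direct difference of 0.75 (limma adjusted p = 0.0335), lost in 6 of 15.

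Of 42 other cytoplasmic and nuclear pathway genes, 2 rose and 4 fell after siMyT1, 1 rose and 5 fell after siLSD1, and 7 were higher and 6 lower in the direct comparison, with medians of -0.02, -0.07 and 0.12. The calls are 14.3%, 14.3% and 31.0% of the list, against the same 7.41%, 8.90% and 18.8%. Tnks encodes tankyrase, which marks Axin for degradation. It measured 22.2, 22.2 and 22.0 after siControl, 24.3, 26.2 and 27.5 after siMyT1, and 11.5, 11.7 and 11.2 after siLSD1, with no overlap between groups. The siLSD1 mean was 51.8% of the siControl mean, a log2 difference of -0.94 (SE 0.06, limma adjusted p = 1.10e-06), which passed in all 16 alternatives. The siMyT1 difference of 0.23 (SE 0.06, limma adjusted p = 0.0337) was lost in 10 of them.

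Hbp1, a repressor that binds TCF factors, was higher after siMyT1 than after siLSD1 by 0.44 (limma adjusted p = 0.000744), at 15.6 ± 1.3 and 11.4 ± 0.29. Cxxc5, an inhibitor that binds Dishevelled, was at 10.3 ± 1.5 after siControl, 7.94 ± 0.82 after siMyT1 and 12.0 ± 0.69 after siLSD1. Its direct difference of -0.59 (limma adjusted p = 0.00119) passed in all 16 alternatives, and its siMyT1 difference of -0.36 (limma adjusted p = 0.0459) in 7. Csnk2a1, a catalytic subunit of casein kinase 2, was at 14.0 ± 0.49 after siControl, 11.3 ± 0.63 after siMyT1 and 15.2 ± 0.58 after siLSD1. Its siMyT1 difference was -0.30 (limma adjusted p = 0.0119) and its direct one -0.42 (limma adjusted p = 0.000441). With all its probe sets averaged these were -0.03 and 0.12, neither past the test (adjusted p = 0.930 and 0.437), so the direct difference changed sign.

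Of 34 measured genes known as beta-catenin targets in some tissue, a list that includes Axin2, Lef1, Nkd1, Znrf3, Rnf43 and Dkk1, 2 rose and 1 fell after siMyT1 and 2 rose and 1 fell after siLSD1. In the direct comparison 3 were higher and 4 lower, and the medians of the 3 comparisons were 0.04, -0.05 and 0.04. The shares called, 8.82%, 8.82% and 20.6%, were close to the 7.41%, 8.90% and 18.8% of all genes. Bambi, a decoy receptor for TGF-beta family ligands, measured 6.48, 7.18 and 6.86 after siControl, 10.1, 11.6 and 10.6 after siMyT1, and 6.68, 6.61 and 6.75 after siLSD1. The siMyT1 arrays stood above all others, with a difference of 0.64 (SE 0.07, limma adjusted p = 0.000163). Ccnd1, which encodes cyclin D1, measured 24.0, 24.3 and 24.3 after siControl, 25.4, 26.5 and 28.9 after siMyT1, and 40.1, 36.3 and 37.3 after siLSD1. It rose by 0.64 after siLSD1 (SE 0.06, limma adjusted p = 3.43e-05), while its siMyT1 difference was 0.15 (limma adjusted p = 0.185).

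Zcchc12 was at 13.4 ± 0.52 after siControl, 8.33 ± 1.1 after siMyT1 and 12.7 ± 0.52 after siLSD1, and fell by 0.68 on the log2 scale after siMyT1 (limma adjusted p = 0.000391). Birc5, which encodes survivin, was at 21.4 ± 0.43, 22.2 ± 1.8 and 16.4 ± 1.5, and fell by 0.39 on the log2 scale after siLSD1 (limma adjusted p = 0.00589). Each of these 4 targets passed in one of the comparisons with siControl, and every one of their calls passed in all 16 alternatives. Whether the effects of the 2 siRNAs differed is given by the direct comparison, in which Bambi was at 0.67, Ccnd1 at -0.49, Zcchc12 at -0.60 and Birc5 at 0.44, all past the test.

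Of 32 measured genes of the planar polarity and calcium branches, 3 rose and 2 fell after siMyT1, 4 rose and 2 fell after siLSD1, and 4 were higher and 3 lower in the direct comparison, with medians of 0.10, 0.02 and 0.07. The shares called were 15.6%, 18.8% and 21.9%, against 7.41%, 8.90% and 18.8% of all genes. Celsr3, a polarity cadherin needed for axon tracts, measured 5.87, 6.23 and 5.62 after siControl, 4.22, 4.39 and 4.42 after siMyT1, and 7.46, 7.49 and 7.20 after siLSD1. The 3 groups did not overlap. Like Dkk3, it fell after siMyT1 (-0.43, SE 0.07, limma adjusted p = 0.00227) and rose after siLSD1 (0.31, SE 0.07, limma adjusted p = 0.0106), the latter call lost without siControl replicate 1 (adjusted p 0.00149 to 0.0511 over 16 alternatives).

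Intu, a planar polarity effector that works at the cilium, was at 1.34 ± 0.085 after siControl, 1.66 ± 0.22 after siMyT1 and 0.711 ± 0.033 after siLSD1. Its siLSD1 difference was -0.75 (limma adjusted p = 0.00454) and its direct one 1.03 (limma adjusted p = 0.000288), both lost with all its probe sets averaged, at -0.38 and 0.43. Mapk10, a JNK kinase of neurons, was at 2.06 ± 0.35, 1.08 ± 0.38 and 2.89 ± 0.15 in the order siControl, siMyT1 and siLSD1. Its direct difference of -1.33 (limma adjusted p = 0.000541) passed in all 16 alternatives, and its siMyT1 difference of -0.87 (limma adjusted p = 0.0212) was lost in 5, among them without siControl replicate 1 or 3. Ppp3cb, a catalytic subunit of calcineurin, was at 17.6 ± 0.49, 15.7 ± 0.80 and 21.1 ± 0.57. Its siLSD1 difference was 0.26 (limma adjusted p = 0.0125) and its direct one -0.43 (limma adjusted p = 0.000241). With all probe sets averaged these were 0.05 and -0.15, and neither passed (adjusted p = 0.794 and 0.206). The siLSD1 call was lost in 5 of 16 alternatives (adjusted p 0.000729 to 0.794), also without the intensity trend and without siControl replicate 1, siControl replicate 3 or siLSD1 replicate 3.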

How the data were processed

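Total RNA from Neuro2a cells was purified on RNeasy columns, labelled with biotin and hybridised to 1-colour arrays, per the labels' protocols. The authors deposited a linear intensity for each of 45101 probe sets; how these values were summarised and normalised is not given in the sources used here. Of the probe sets, 34945 carried 1 gene symbol in the platform annotation, 932 several, and 9211 were not listed. The brightest of a gene's single-symbol probe sets over the 9 arrays stood for it, giving 18193 genes.

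Values were multiplied by 163.6, which sets the mean of the 2% trimmed means to 500, and log2(value + 32) was taken, with no normalization between arrays. All 9 arrays were fitted by group with limma 3.58.1 in R 4.3.3 (6 residual and 6.84 prior degrees of freedom, intensity trend, two-sided, Benjamini-Hochberg over all genes), tested first on simulated data. The number of arrays limits the precision. The list of members, the further pathway lists and the marker lists were chosen with earlier results of these data known. Members that passed are given on every array, the others by role, together with both siRNA targets. From each further list the up to 4 genes with the smallest adjusted p in any comparison are named. Alternatives changed scaling, pseudocount, dim filter, probe set choice, samples, variance trend and pairing, or left out 1 array. RefSeq promoter windows were searched for exact motifs on both strands.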

Additional observations from a re-analysis of the deposited data

How the results depend on the processing

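The members past the threshold numbered 4 after siMyT1, 2 after siLSD1 and 7 in the direct comparison. Over all genes the shares were 7.41%, 8.90% and 18.8%. Without the intensity trend the members numbered 2 after siMyT1 and 1 after siLSD1, where 4.2% and 6.2% of all genes passed. After siLSD1 they were 6 of 47 with quantile normalization, against 15.4% of all genes. With the filter on dim genes they were 4 of 24, against 22% of 10399 genes. Leaving out 1 array gave 2 to 4 after siMyT1, 1 to 3 after siLSD1 and 4 to 8 in the direct comparison. The shares of all genes then ran from 3.57% to 7.97%, 5.3% to 7.24% and 12.8% to 20.4%. With a replicate block the members numbered 3, 3 and 6, against 5.14%, 6.92% and 16.1% of all genes. Deviations of same-numbered arrays correlated at -0.0264 to 0.038, so no pairing by replicate number showed in the values. These correlations cannot tell whether same-numbered arrays were handled together.

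Of the single-gene results, including both siRNA targets and the further pathway genes, which were added after seeing the data, 1 changed sign. That was Csnk2a1 in the direct comparison with all probe sets averaged, at 0.12, and the cause was not tested. Over all alternatives 624 single-gene values stayed on the same side of the threshold and 93 fell short of it. Signal over background was not measured here, so for the 23 members below 0.587 units in every group it is not known how much of the value is background.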
